A study of Homo sapiens with 6 samples.

Results

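The segment of chromosome 5 between 50 and 140 Mb (build hg19), on the long arm, was taken as all distinct peaks of 4 deposited peak lists that start within these limits. It held 902 of 65225 peaks: 635 of 33470 H3K4me3 peaks in parental cells, 252 of 24943 H3K4me3 peaks in JMJD3 knockout cells, and 7 of 3578 and 8 of 3234 H3K27me3 peaks in parental and knockout cells. The cells were HL-60, a human promyelocytic leukaemia line labelled myeloblast by cell type, either parental or labelled JMJD3 KO, and the labels do not say whether the knockout was 1 clone. Peak lists measure neither the JMJD3 transcript nor its protein, so the knockout label was not checked here. Chromatin immunoprecipitation and sequencing (ChIP-seq) gave 1 library per genotype and mark, so no difference between genotypes could be tested, and intervals are 95% intervals (Wilson for shares and ratios, order statistics for medians) that cover counting error only. The segment was selected on its H3K4me3 peak counts in both genotypes, so its H3K4me3 difference is a description; neither the H3K27me3 lists nor the promoter sequences entered that choice.

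H3K4me3, trimethylation of lysine 4 of histone H3, marks the promoters of active genes and usually flanks the start site, where the nucleosome is displaced. H3K27me3 is written by the Polycomb complex at silent developmental genes, and JMJD3 (KDM6B) is an enzyme that removes it. The long arm of chromosome 5 carries the interleukin cluster and many housekeeping genes, and it has long been studied in myeloid disease.

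Promoters of 6 genes show the range of states met in the segment: CCNB1, BTF3 and EGR1 were marked by H3K4me3 in the parental list alone, AFF4 held nearly the same width in both lists, FST was the widest, and VCAN was marked in the knockout list alone. Each run is the 250 bases before the RefSeq start (build GRCh38.p14), 5′ to 3′ on the gene's strand, with CG dinucleotides in capitals. The peaks are in hg19, so genes were joined to these sequences by symbol and no peak was placed on them.
CCNB1 (chr5:69166900-69167149, plus strand): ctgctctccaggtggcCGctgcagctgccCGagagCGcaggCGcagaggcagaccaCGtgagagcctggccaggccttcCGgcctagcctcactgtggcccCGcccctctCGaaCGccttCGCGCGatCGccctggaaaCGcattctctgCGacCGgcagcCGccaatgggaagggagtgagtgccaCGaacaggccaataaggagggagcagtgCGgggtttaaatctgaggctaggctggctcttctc
BTF3 (chr5:73498192-73498441, plus strand): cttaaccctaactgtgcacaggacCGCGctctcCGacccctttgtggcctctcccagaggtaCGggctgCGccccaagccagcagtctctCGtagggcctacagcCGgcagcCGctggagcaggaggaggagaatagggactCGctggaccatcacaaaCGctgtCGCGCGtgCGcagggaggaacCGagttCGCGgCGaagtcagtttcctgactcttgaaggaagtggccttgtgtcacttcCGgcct
EGR1 (chr5:138465229-138465478, plus strand): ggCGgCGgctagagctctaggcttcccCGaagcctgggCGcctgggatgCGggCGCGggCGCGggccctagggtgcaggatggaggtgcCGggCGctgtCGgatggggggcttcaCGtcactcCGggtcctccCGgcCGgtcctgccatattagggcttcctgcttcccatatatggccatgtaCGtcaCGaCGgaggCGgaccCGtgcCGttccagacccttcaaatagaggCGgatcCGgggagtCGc
AFF4 (chr5:132963635-132963884, minus strand): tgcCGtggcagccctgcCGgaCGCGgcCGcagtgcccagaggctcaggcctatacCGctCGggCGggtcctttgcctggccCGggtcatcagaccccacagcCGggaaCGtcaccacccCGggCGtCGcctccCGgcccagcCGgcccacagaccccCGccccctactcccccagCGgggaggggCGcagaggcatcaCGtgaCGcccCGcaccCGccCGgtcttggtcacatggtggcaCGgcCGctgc
FST (chr5:53480379-53480628, plus strand): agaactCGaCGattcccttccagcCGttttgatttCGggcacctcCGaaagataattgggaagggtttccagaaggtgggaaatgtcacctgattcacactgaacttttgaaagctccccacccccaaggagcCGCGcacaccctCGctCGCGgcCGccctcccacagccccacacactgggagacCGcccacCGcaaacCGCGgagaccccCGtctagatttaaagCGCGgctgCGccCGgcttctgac
VCAN (chr5:83471494-83471743, plus strand): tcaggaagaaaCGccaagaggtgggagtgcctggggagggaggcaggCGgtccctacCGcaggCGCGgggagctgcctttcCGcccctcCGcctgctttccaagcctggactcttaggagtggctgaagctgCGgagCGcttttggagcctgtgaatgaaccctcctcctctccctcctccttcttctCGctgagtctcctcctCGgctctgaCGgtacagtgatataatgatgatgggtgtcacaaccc

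The 6 promoters hold 19, 19, 25, 26, 20 and 12 CG dinucleotides in the order shown. The 12 of VCAN lie below the lower quartiles of both groups of marked promoters given next. In the segment, promoters marked by H3K4me3 in both lists had a median of 20 CG dinucleotides in these 250 bases (quartiles 16 and 28, 149 genes with a sequence), and those marked in the parental list alone had 22 (quartiles 15.75 and 27.25, 80 genes). Promoters of the segment with no H3K4me3 peak in either list had a median of 7.5 over 20 genes. The parental-only promoters of the segment thus had at least as many CG dinucleotides at the median as those marked in both lists, whereas on the other autosomes the parental-only median was 18 against 22 for promoters marked in both. Of the 308 genes that the lists name in the segment, 255 matched a RefSeq promoter.

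Short motifs were searched on both strands of the same 250 bases. The GC box GGGCGG, a binding sequence of SP1-type factors, was found in 67.1% of the segment promoters marked in both lists and in 70% of those marked in the parental list alone, against 42.3% of all 27305 promoters. CCAAT, the box bound by NF-Y, was found in 32.9% and 36.25% of these groups against 33.0% of all promoters. CCNB1, which encodes the mitotic cyclin B1, carries CCAAT at 87 and 55 bases before its start. The TATA box TATAAA was found in 4.03% and 7.5% against 11.1%, and TTTGAA, the letters of the cell cycle homology region, in 7.38% and 10% against 13.6%. In the 20 segment promoters with no H3K4me3 peak, the shares were 35%, 40%, 15% and 15%, in the order given. The set of all promoters was not restricted to marked ones, so these comparisons do not separate the segment from the presence of H3K4me3. Whether the segment differs from marked promoters elsewhere was not tested. The shares count matches of letters and not measured binding.

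Along the segment, the ratio of knockout to parental H3K4me3 peaks was 0.397 (0.343 to 0.459), while both remaining parts of chromosome 5 stood near the value of the other autosomes. Below 50 Mb the counts were 272 and 206, a ratio of 0.757 (0.632 to 0.907). From 140 Mb they were 507 and 384, again a ratio of 0.757 (0.663 to 0.865). The other autosomes together had a ratio of 0.762 (0.749 to 0.775). The segment was chosen on these counts, so the gap between it and its flanks is a description and was not tested. Chromosome X, at 0.370 (0.324 to 0.422), and the first 10 Mb of chromosome 17, at 0.341, were as low as the segment.

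Ratios in the 9 windows of 10 Mb ran from 0.267 to 0.586. The highest was that of the window from 50 to 60 Mb, with 70 parental and 41 knockout peaks and an interval (0.399 to 0.859) that holds the value of the other autosomes. The next 2 windows held 68 and 19 peaks, and 90 and 24 peaks, with ratios of 0.279 and 0.267. Lower counts followed from 80 to 110 Mb, where the windows held 38 and 15, 51 and 21, and 27 and 8 peaks. The window from 110 to 120 Mb held 81 and 36 peaks, that from 120 to 130 Mb 32 and 9, and that from 130 to 140 Mb, the fullest of the segment, 178 and 79. The window that follows the segment, from 140 to 150 Mb, held 119 and 95 peaks, a ratio of 0.798. Of 266 autosomal windows outside the segment with at least 20 parental peaks, 5 had a ratio at or below the median of the segment windows (0.395), 17 at or below their highest, and the median of those 266 windows was 0.770.

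**Figure D1:**
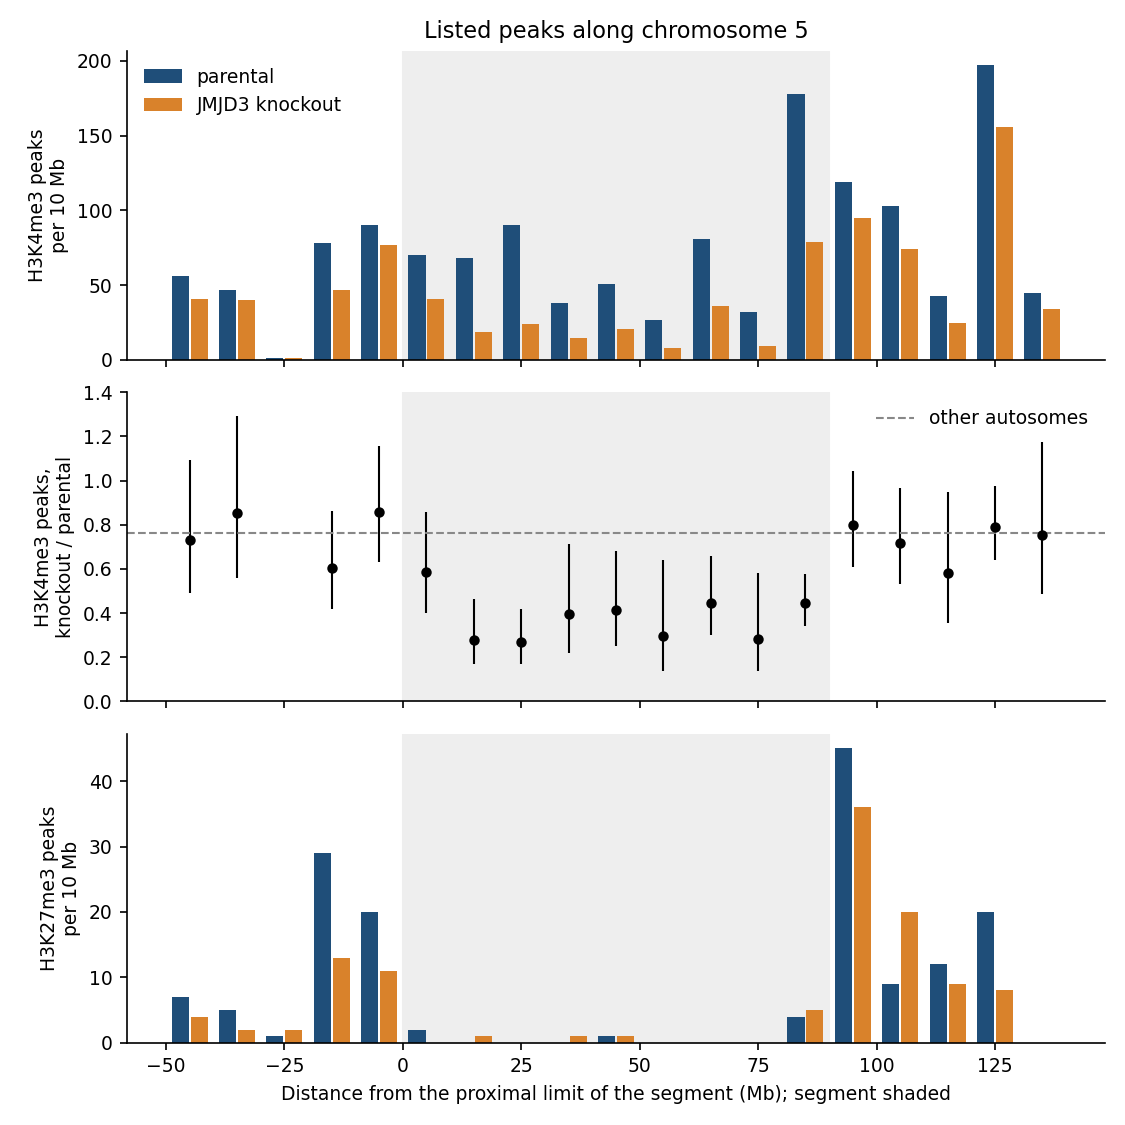
Listed peaks in windows of 10 Mb along chromosome 5, by distance in Mb from the proximal limit of the segment (shaded). Top, number of H3K4me3 peaks in the parental and knockout lists; middle, knockout over parental ratio with its 95% interval, in windows with at least 20 parental peaks, beside the ratio of the other autosomes (dashed); bottom, number of H3K27me3 peaks. Ratios in the shaded windows lie between 0.267 and 0.586, and these windows hold 15 H3K27me3 peaks over both lists.

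Windows of 1 Mb did not show a single clean step at the proximal side. From 52 to 53 Mb the lists held 15 parental and 16 knockout peaks, from 53 to 54 Mb 5 and 2, and from 54 to 55 Mb 14 and 4. The window from 55 to 56 Mb then held 4 and 3 and that from 56 to 57 Mb 13 and 13, while the next ones held 7 and 0, then 9 and 1. Some windows deeper inside were nearly empty in the knockout list, such as 68 to 69 Mb with 18 and 2 peaks and 72 to 73 Mb with 20 and 1, while 77 to 78 Mb held 6 in each. At the distal side, counts of 34 and 9 from 137 Mb, 30 and 11 from 138 Mb and 30 and 17 from 139 Mb were followed by 26 and 23 from 140 Mb.

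A single interval with 1 knockout share inside and another outside was fitted to the ordered peaks of chromosome 5. The best interval ran from 56.5 to 139 Mb (56473747 to 139494587), a length of 83.0 Mb, so the low ratio began inside the proximal limit of the segment and ended close to the distal one. Positions within 2 log-likelihood units of the best reached from 52.8 to 58.3 Mb at the start and from 138.63 to 139.937 Mb at the end. Inside it 563 parental and 197 knockout peaks gave a ratio of 0.350 (0.298 to 0.411), and the rest of chromosome 5 gave 0.758 (0.684 to 0.840) from 851 and 645 peaks. Since the segment was proposed from these counts, the fit places its edges and does not test it.

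The genes next to the edges are given as a description, since the edges were fitted on their peaks. Genes are called inside or outside by their start sites, and both edges cut through a promoter. The fitted start lies in a parental peak of GPBP1 (56473632 to 56473861) and the fitted end in one of PURA (139494505 to 139494668). The knockout peak of PURA (139494979 to 139495130) and its widest parental peak (139495362 to 139495789) lie beyond the end edge. Promoter width here is the summed width of H3K4me3 peaks of a list whose centre lies within 5 kb of a start site of the gene or that span the site. MIER3, a chromatin-associated factor, and GPBP1, a GC-rich promoter binding protein, lie just outside the start edge with parental and knockout widths of 1270 and 624 bp, and of 1025 and 955 bp. PLK2, a Polo-like kinase, and GAPT, a haematopoietic adaptor protein, are the first marked genes inside and had 384 and 1118 bp in parental cells and no listed peak in the knockout. At the end edge, LINC01024 inside had 203 bp and none, and PURA, a single-stranded nucleic acid binding protein, 950 and 152 bp. Outside, CYSTM1 had 609 and 466 bp and PFDN1, a prefoldin chaperone subunit, 1363 and 691 bp. Both genes outside each edge were marked in both lists, and 3 of the 4 genes inside were marked in the parental list alone. Further outside the start edge, MCIDAS (551 bp), CDC20B (655 bp) and SLC38A9 (302 bp), named after their values were seen, were also marked in the parental list alone.

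At the limits of the rule itself, the last parental H3K4me3 peak before 50 Mb was 193 bp wide near PARP8 and the first inside was 598 bp wide near LOC100287592. The last inside was 1040 bp wide near APBB3 and the first beyond 140 Mb was 325 bp wide near TMCO6. In the knockout list the peaks near the same genes were 163, 169, 146 and 171 bp wide.

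H3K27me3, which the choice of the segment did not use, was nearly absent from both lists here. The segment held 7 parental and 8 knockout peaks in 90 Mb, while chromosome 5 held 62 and 32 below 50 Mb and 86 and 73 from 140 Mb. The nearest listed peaks outside the limits lay at 44.4 and 141.2 Mb in the parental list. In the knockout list they lay at 42.8 and 145.3 Mb, so the sparse stretch of listed peaks reached past both limits. A median window of 10 Mb outside the segment held 9.5 parental and 9 knockout H3K27me3 peaks, and the median segment window held 0 in each list. Of the 9 windows of the segment, 4 were empty in both lists, against 23 of 266 windows outside. A peak within 20 kb of a start site was listed for 5 of 308 genes in parental cells (1.62%, 0.695 to 3.74%) and for 6 in knockout cells (1.95%, 0.896 to 4.18%), while on the other autosomes these shares were 12.7% and 13.1%. The ratio of knockout to parental peaks, 1.14 (0.431 to 3.03), cannot be told from that of the other autosomes, 0.924, at these counts.

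The lists hold 1 line per pair of a peak and a start site within 20 kb, so peaks far from genes have no line, but their numbers can be counted. Peak names carry a running number that followed genome order without a break in all 4 lists. By these numbers the segment held 672 parental and 266 knockout H3K4me3 peaks, a ratio of 0.396, and between 8 and 30 parental and between 11 and 71 knockout H3K27me3 peaks. The H3K27me3 lists held between 323 and 357 numbered parental peaks and between 197 and 227 knockout ones on the shorter stretch below 50 Mb. The sparse H3K27me3 of the segment was thus seen among numbered peaks as well as listed ones.

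In parental cells 3 consecutive numbers span most of the segment: they belong to peaks at 57.2, 92.9 and 135.6 Mb. No H3K27me3 peak was numbered over the 35.8 Mb from 57.1842 to 92.9469 Mb or over the 42.7 Mb from 92.9478 to 135.619 Mb, on the reading that numbers follow position. Between listed peaks with consecutive numbers these were the 2 longest stretches of the parental H3K27me3 list, ahead of 19.0 Mb on chromosome 6. Other neighbouring listed peaks lay up to 52.8 Mb apart, on chromosome 13, with 6 numbers between them. In the knockout list, peaks at 92.9476 and 134.974 Mb had 1 number between them, so a stretch of at least 21.0 Mb of these 42.0 Mb held no numbered peak. Both genotypes were thus sparse over this distal stretch.

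The 15 H3K27me3 peaks of the segment gathered at a few places. The first parental peak lies at FST, the gene of follistatin, a secreted activin-binding protein (chr5:52774971-52775418, 448 bp, with its centre 1069 bp before the start site), and it overlaps H3K4me3 peaks of both genotypes. A second lies 11258 bp from LOC101928539 and overlaps no other listed peak. The third, near the microRNA gene MIR2277, measured 969 bp in the parental and 997 bp in the knockout list and overlapped between them. The remaining 4 parental peaks lie between 135.6 and 135.7 Mb, near MIR4454 and TRPC7, the gene of a calcium-permeable channel. In the knockout list 4 peaks were found at these same genes, the widest of 2148 bp, and the others were near RGS7BP (1342 bp), VCAN (642 bp), MIR2277 and LOC340074 (939 bp).

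Overlap between genotypes was 2 of 7 parental and 2 of 8 knockout H3K27me3 peaks. Over the whole lists 72.8% of parental and 70.4% of knockout H3K27me3 peaks had no overlapping peak of the other genotype, and with 7 and 8 peaks no difference from these shares was detectable. Promoter H3K27me3 was found at FST (448 bp) and TRPC7 (1091 bp) in the parental list alone and at VCAN (642 bp), the matrix proteoglycan versican, in the knockout list alone. Over all genes 53.6% of those marked in parental cells were marked in that list alone and 52.3% of those marked in knockout cells in that one, and 7.7% of all genes were marked in either list, against 3 of 308 here. OTP and FOXD1, homeobox and forkhead genes of the kind that Polycomb often covers, and NR2F1, an orphan nuclear receptor, had no promoter H3K27me3 in either list.

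Returning to H3K4me3, the segment's parental peaks were already narrow, with a median width of 273 bp against 366 bp on the other autosomes. Knockout peaks of the segment had a median of 204.5 bp against 262 bp. Peaks of at least 1000 bp were rare: 10 of 635 in parental cells (1.57%, other autosomes 13.3%) and 1 of 252 in knockout cells (0.397%, other autosomes 1.80%). Summed over the segment, peaks covered 213 kb in parental and 59.8 kb in knockout cells, a ratio of 0.280 against 0.479 on the other autosomes. In both regions this ratio was below that of peak number, 0.397 in the segment and 0.762 on the other autosomes. Knockout peaks were both fewer and narrower in each, so this is not particular to the segment.

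Of the 635 parental H3K4me3 peaks, 178 (28.0%, 24.7 to 31.6%) were overlapped by a knockout peak; over the whole series 47.4% of parental peaks were not overlapped. Conversely 184 of 252 knockout peaks (73.0%, 67.2 to 78.1%) overlapped a parental one, while 11.3% of all knockout peaks of the series overlapped none. Overlap was more frequent for wider parental peaks, in the segment as elsewhere. Among peaks under 200 bp, 12.8% were overlapped in the segment and 20.2% on the other autosomes. From 300 to under 500 bp the shares were 31.5% and 51.3%, and from 500 to under 1000 bp 54.3% (44.2 to 64.1%) and 80.4%. Of the 10 widest, of at least 1000 bp, 8 were overlapped (80%, 49.0 to 94.3%) against 96.9%. The lower overlap of the segment was thus seen at matched widths, but the choice of the segment on its H3K4me3 counts favours this in each class. The intervals met only in the class from 200 to under 300 bp (24.0% and 30.5%). They treat neighbouring peaks as independent, which they are not, and serve as description only. On chromosome X the shares were 26.6% from 300 to under 500 bp and 41.8% from 500 to under 1000 bp.

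**Figure D2:**
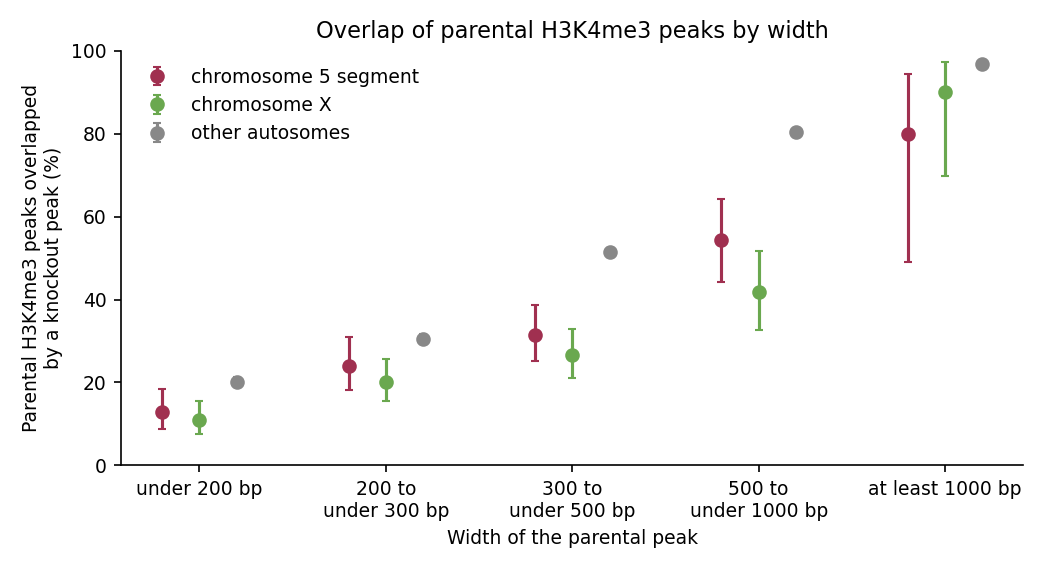
Share of parental H3K4me3 peaks that a knockout peak overlaps by at least 1 bp, by width of the parental peak, for the chromosome 5 segment, chromosome X and the other autosomes; bars are 95% Wilson intervals. The segment lies below the other autosomes in each width class, by 54.3% against 80.4% for widths of 500 to under 1000 bp.

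The difference in overlap, which the choice of the segment favours, was seen up to 5000 bp from the nearest start site. Parental peaks with a centre within 500 bp of a start site were overlapped in 24.3% of cases in the segment and 55.1% on the other autosomes. Those over 500 and up to 1000 bp away were overlapped in 33.9% and 72.3%, and those over 1000 and up to 5000 bp in 26.7% and 46.7%. Beyond 5000 bp the shares were 29.2% (14.9 to 49.2%, 24 peaks) and 27.6%. For these few distal peaks no difference was detectable.

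The profile around start sites shows the same in position. Among 229 genes of the segment that were marked in parental cells, a choice that favours the parental curve, and that have a known strand, 48.9% were under a parental peak at 500 bp downstream of the start and 16.6% under a knockout peak. On the other autosomes these shares were 70.6% and 39.7% of 9019 genes. At the start site itself the shares were 7.86% and 1.31% in the segment, and at 500 bp upstream 23.6% and 7.42%. Both lists kept the dip at the start site and the higher shoulder downstream, the shape that H3K4me3 commonly has at promoters.

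**Figure D3:**
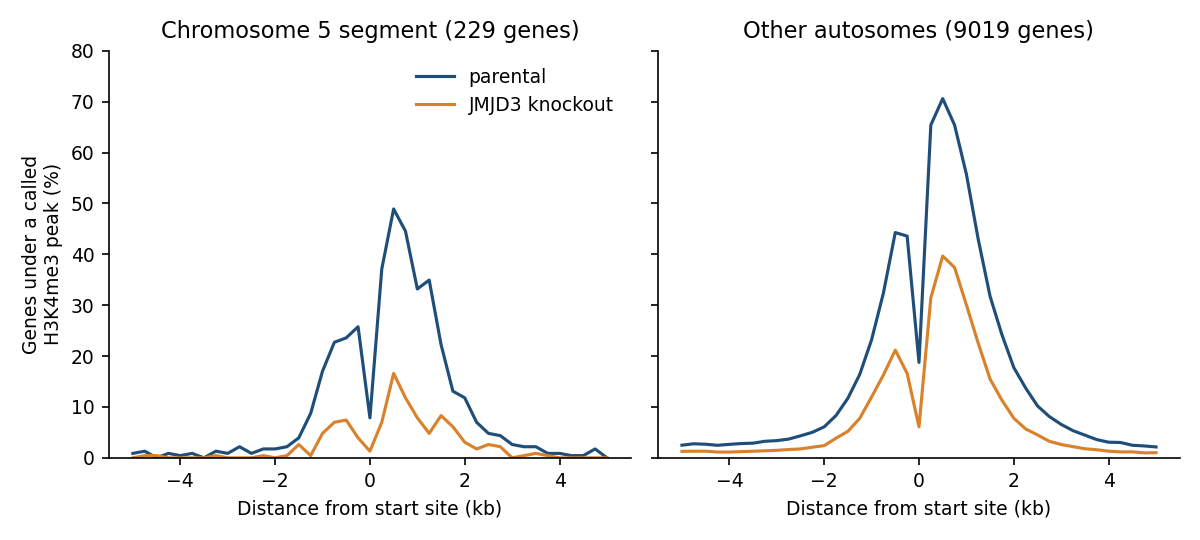
Share of genes under a called H3K4me3 peak at each distance in kb from the start site, oriented so that positive values lie downstream, in the chromosome 5 segment (229 genes, left) and on the other autosomes (9019 genes, right), for genes marked in parental cells. The segment's curves peak at 500 bp downstream, at 48.9% in parental and 16.6% in knockout cells.

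The lists name 308 genes with a start site in the segment, which are those with a peak of any list within 20 kb; genes without one are not counted. Of these, 264 carried promoter H3K4me3 in parental cells. In all, 172 were marked in both lists, 92 in the parental list alone, 7 in the knockout list alone and 37 in neither. The parental-only genes were 34.8% (29.4 to 40.8%) of those marked in parental cells, beside 13.3% over all genes of the series, 11.9% on the other autosomes and 46.3% on chromosome X. The knockout-only genes were 7 of 179 marked in knockout cells, beside 1.57% over all genes. Genes that share a promoter share peaks, and counted as promoter regions there were 132 in both, 73 in the parental list alone and 7 in the knockout list alone.

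For the 172 genes found in both lists, knockout over parental promoter width had a median log2 ratio of -1.41 (-1.57 to -1.23, quartiles -2.10 and -0.95). On the other autosomes it was -1.0. The knockout width was under 50% of the parental width for 121 genes (70.3%, beside 50.5% over all genes marked in both). It was larger for 5 genes, beside 4.05% over all genes: ERAP2 (log2 ratio 0.73), COMMD10 (0.57), RIOK2 (0.20), and SCAMP1 with its antisense neighbour SCAMP1-AS1 (0.08 each, from the same peaks). Width says how far a called region reaches, which is not the amount of the mark.

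**Figure D4:**
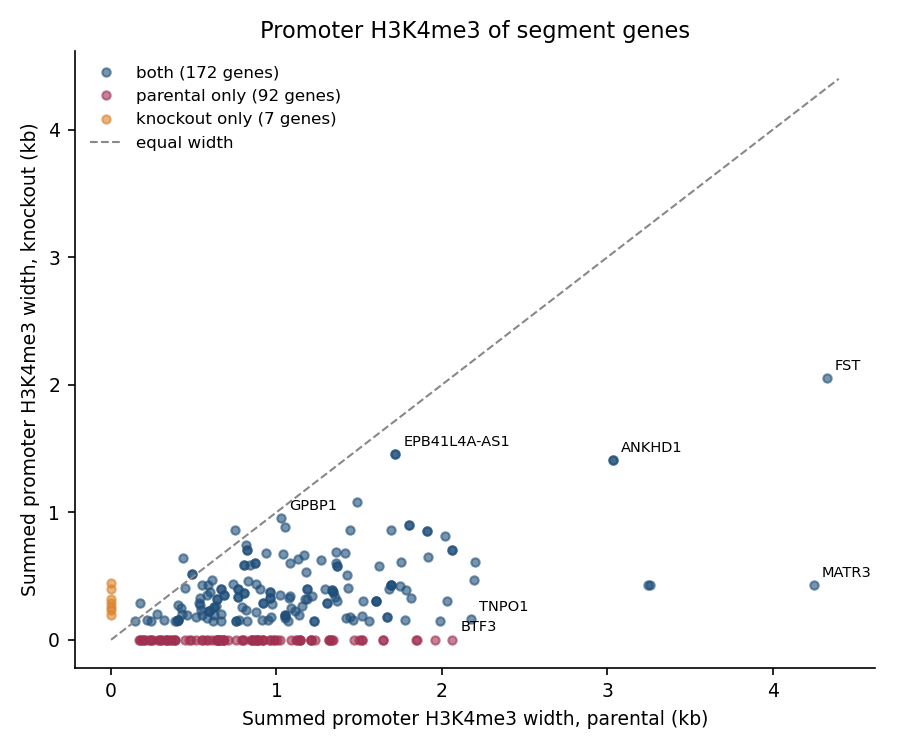
Summed promoter H3K4me3 width in kb of the 271 segment genes marked in either list, parental on the horizontal and knockout on the vertical axis; each point is a gene and the dashed line marks equal width. Nearly all points lie below the line, with 92 genes at 0 in the knockout; above it lie 5 genes marked in both and the 7 knockout-only genes.

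Among promoters of like parental width the difference was described in the same way, and the choice of the segment favours it here too. Among genes with 1000 to under 2000 bp in parental cells, 26 of 101 in the segment were marked in the parental list alone (25.7%, 18.2 to 35.0%) against 4.37% on the other autosomes, and the others had a median log2 ratio of -1.84 against -1.04. With 500 to under 1000 bp the shares were 37.5% and 24.7%. Under 500 bp they were 57.8% (43.3 to 71.0%) and 62.9%, so among the narrowest promoters no difference was detectable.

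The parental-only promoters included broad ones at genes of basic cell function. BTF3, a translation-associated chaperone subunit and the widest of them, had 4 parental peaks between 72793717 and 72796488 that summed to 2064 bp. ETF1, the translation termination factor eRF1, had 1957 bp in 6 peaks, IQGAP2, a scaffold of the actin skeleton, 1848 bp, and LMNB1, the nuclear lamina protein lamin B1, 1841 bp. UTP15 and ANKRA2 share a promoter of 1643 bp, as do CHD1, a chromatin remodeller that binds H3K4me3, and LOC100289230, of 1515 bp. None of these 8 genes had a listed knockout peak within 5 kb of a start site.

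The widest promoters marked in both lists differed in how much was left. FST had 4326 bp in 4 parental peaks and 2054 bp in 7 knockout peaks (log2 ratio -1.07), near the median of the other autosomes. MATR3, a nuclear matrix RNA-binding protein, had 4248 bp in 10 peaks and 428 bp in 2 (-3.31), and SNHG4 and SNORA74A share most of these peaks. ANKHD1 had 3034 and 1407 bp (-1.11), JMY, an actin nucleator, 2200 and 614 bp (-1.84), and ARL15 2196 and 469 bp (-2.23). Among promoters of at least 1000 bp in parental cells, the lowest ratios were those of PDE4D, a cAMP phosphodiesterase, with 1986 and 146 bp (-3.77), TNPO1, a nuclear import receptor, with 2174 and 160 bp (-3.76), HSPA4, a heat shock protein, with 1775 and 153 bp (-3.54) and KCNN2, a potassium channel, with 1557 and 146 bp (-3.41). Each of these 4 genes had a single short knockout peak, and that of PDE4D (58331776 to 58331921) overlapped none of its parental peaks. The lowest width of any segment gene marked in both was 146 bp in either list. The lowest ratios thus come from knockout widths at or near that floor and depend on the parental width. The highest ratios were those of GPBP1 (-0.10), EPB41L4A-AS1 and SNORA13, which share peaks (1718 and 1456 bp, -0.24), and MAP3K1, a kinase of the stress pathway (1051 and 886 bp, -0.25). The start sites of GPBP1, MAP3K1 and FST lie before the fitted start edge, while that of ANKHD1 lies beyond the end edge.

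All 7 knockout-only promoters were narrower than the median parental width of segment genes marked in both lists, 1032 bp. The median knockout width of those genes was 345.5 bp, which PPIC and CDKN2AIPNL exceeded. PPIC, a cyclophilin, had 443 bp in 1 peak, CDKN2AIPNL 399 bp and ITGA2, a collagen-binding integrin, 319 bp. VCAN had 2 peaks of 146 bp each downstream of its start, MCTP1 had 260 bp, ATG10, an autophagy enzyme, 235 bp and RGMB-AS1 196 bp. At VCAN the knockout thus listed both H3K4me3 and, 4035 bp upstream of the start, H3K27me3, where the parental lists had neither. The 2 H3K4me3 peaks lay 2180 and 2907 bp downstream, and the H3K27me3 peak overlapped no H3K4me3 peak. With a promoter window of 1 kb none of these peaks would count.

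In the gene groups that follow, counts of parental-only genes stand beside 34.8% of the parental-marked genes of the segment and 13.3% over the series. Genes listed for the cell cycle and DNA repair were marked in parental cells in all 21 cases, of which 10 were marked in the parental list alone. These 10 include DTWD2, which was listed here although it is a tRNA-modifying enzyme. CCNB1 had 4 parental peaks of 259, 385, 197 and 181 bp between 68462421 and 68464262, which sum to 1022 bp, and no listed knockout peak. Its neighbours CDK7, the kinase of the transcription factor TFIIH, with 1005 bp, and CENPH, a kinetochore protein, with 573 bp, had none either. XRCC4, of DNA end joining (1142 bp), KIF20A, a mitotic kinesin (986 bp), POLK, a translesion polymerase (917 bp), and CENPK (851 bp) were also parental-only. The 11 genes marked in both had a median log2 ratio of -1.41, equal to the median of the segment. They ranged from CCNO (1422 and 167 bp, -3.09) to CDKL3 and UBE2B, which share a promoter of 1802 and 902 bp (-1.0). CDC25C, the phosphatase that starts mitosis, had 2018 and 812 bp (-1.31), RAD50 903 and 395 bp (-1.19), and the mismatch repair gene MSH3 590 and 222 bp (-1.41).

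Of 18 genes with a listed start site that have been discussed as candidates in myeloid disease of the long arm, 11 were marked in both lists, 6 in the parental list alone and 1 in neither. EGR1, an immediate-early zinc finger factor, had 4 parental peaks of 226, 230, 195 and 235 bp (886 bp) and no listed knockout peak. CTNNA1, the adhesion protein alpha-catenin (448 bp), KDM3B, a histone demethylase (646 bp), SMAD5, of BMP signalling (879 bp), BRD8 (986 bp, on a promoter shared with KIF20A) and ETF1 were likewise parental-only. Those marked in both had a median log2 ratio of -2.19, below the segment's -1.41. Besides HSPA4 and MATR3 they included PURA (-2.64), HSPA9, the mitochondrial chaperone mortalin (1051 and 184 bp, -2.51), CXXC5 (971 and 277 bp, -1.81) and PPP2CA, a phosphatase subunit (2059 and 705 bp, -1.55). APC, the regulator of beta-catenin, stood at the other end with 1039 and 672 bp (-0.63).

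Of 21 listed genes of the interleukin cluster and its neighbours, 13 had a start site in the lists. IL5 and LEAP2 had no promoter peak, and IL3, CSF2, IL13, IL4 and IL9 had no line in any list. Among the other 11, 8 were found in both lists, and their median log2 ratio was -1.23. IRF1, an interferon response factor, had 1218 and 344 bp (-1.82), SLC22A5, the carnitine transporter, 402 and 155 bp (-1.37) and SLC22A4 1486 and 1079 bp (-0.46). AFF4, a scaffold of the super elongation complex, had 815 bp in 2 parental peaks and 746 bp in 3 knockout peaks (-0.13). KIF3A (173 bp), C5orf56 (362 bp) and SHROOM1 (302 bp) were parental-only. Genes with nearly equal width in both lists thus lie among genes with none left in the knockout list.

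Of 18 genes listed as mitochondrial, ribosomal and translation genes, 12 were marked in both lists and 5 in the parental list alone. The remaining 1, ATG10, was marked in the knockout list alone and is an autophagy enzyme outside these classes. The median log2 ratio of the 12 was -2.15. RPS23, a protein of the small ribosomal subunit, had 1308 and 290 bp (-2.17), the ribosome biogenesis gene NSA2 shares with GFM2 a promoter of 1050 and 198 bp (-2.41), and MRPS27 had 753 and 146 bp (-2.37). NDUFS4, of respiratory complex I, had 1090 and 249 bp (-2.13) and COX7C, of cytochrome oxidase, 805 and 365 bp (-1.14). HINT1 (962 bp), MRPS36 (674 bp) and MCCC2 (229 bp) joined BTF3 and ETF1 as parental-only.

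Of 13 chromatin and transcription genes, 9 were marked in both (median -1.55) and CHD1, KDM3B, POLR3G (677 bp) and BRD8 in the parental list alone. HNRNPA0 had 1916 and 653 bp (-1.55), SREK1, a splicing regulator, 1814 and 324 bp (-2.49), TAF9, of TFIID, 1695 and 426 bp (-1.99) and BDP1, of TFIIIB, 598 and 373 bp (-0.68). Of 11 signalling and immune genes, 8 were marked in both, with a median of -0.99. ERAP2, an aminopeptidase that trims antigenic peptides, had 173 and 287 bp, while ERAP1 had 540 and 271 bp (-0.99) and LNPEP, of the same family and cluster, 1682 and 400 bp (-2.07). The phosphoinositide 3-kinase subunit PIK3R1 had 1153 and 263 bp (-2.13) and the cytokine receptor IL6ST 805 and 583 bp (-0.47). CAST, the calpain inhibitor (1497 bp), and RASA1 (915 bp) were parental-only, and TSLP had no promoter peak.

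Metabolic and housekeeping genes showed 11 of 19 in both lists (median -1.78), 6 in the parental list alone, PPIC in the knockout list alone and ALDH7A1 in neither. The parental-only genes included SKP1, of the SCF ubiquitin ligase (1145 bp), PPWD1 (851 bp), VDAC1 (633 bp), PGGT1B (336 bp) and SAR1B (245 bp). The group of matrix and secreted factors had 6 genes in the segment. FST and ADAMTS6 (1082 and 600 bp, -0.85) were marked in both and VCAN in the knockout list alone. EDIL3 (1470 bp), FBN2 (1336 bp) and COL4A3BP (917 bp) were marked in the parental list alone. COL4A3BP, though listed in this group, encodes a ceramide carrier and shares its promoter with POLK. Developmental transcription factors had few listed start sites, 5 of 16. NR2F1 (1208 bp), FOXD1 (337 bp), EGR1 and SMAD5 were marked in parental cells alone and OTP in neither list. In each of the 9 groups parental-only genes were present, between 2 and 10 of them, and no group other than the developmental factors lacked genes marked in both. These lists were chosen with earlier results known, and nothing here shows that any of them differs from the other genes of the segment.

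**Figure D5:**
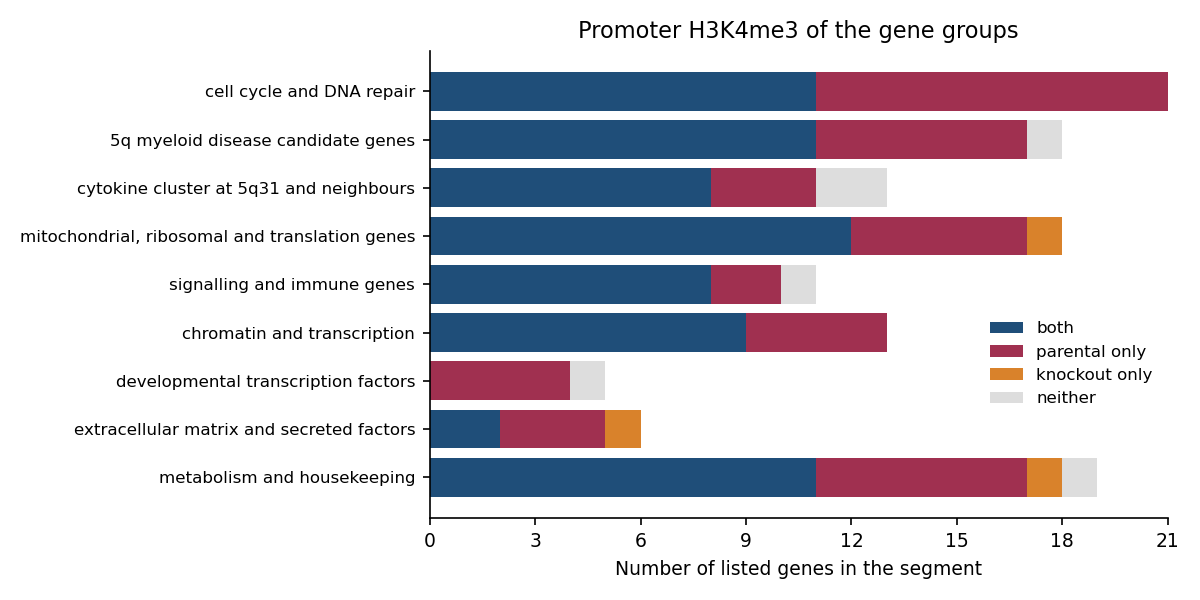
Number of segment genes in each of 9 gene groups by promoter H3K4me3 state: both lists, parental list alone, knockout list alone or neither. Parental-only genes appear in every group, from 10 of 21 genes listed for cell cycle and repair to 2 of 11 listed for signalling.

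Parental-only genes were found all along the segment, but in uneven shares. Every window of 10 Mb held between 5 and 23 parental-only genes. From 110 to 120 Mb 5 genes were parental-only and 23 marked in both. These counts were 6 and 6 from 100 to 110 Mb and 7 and 6 from 120 to 130 Mb, beside 1710 and 11192 over the series. The median log2 ratio of genes marked in both ran from -1.14 (80 to 90 Mb) to -1.90 (120 to 130 Mb). From 130 to 140 Mb, where 93 of the 308 genes lie, 52 were marked in both, 23 in the parental list alone and 17 in neither. Outside chromosome 5, of 11 myeloblast markers 9 carried promoter H3K4me3 in parental and 8 in knockout cells (CTSG being the difference), and of 9 markers of other lineages 8 were marked in neither list and 1 in both. The lists give no read counts, so the depth behind each peak is unknown.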

How the data were processed

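Each of the 4 peak lists was deposited as 1 line per pair of a peak and a RefSeq start site less than 20 kb from the peak's centre. Position, name, transcript, gene symbol, distance and score are its columns, per the file headers. The deposited score is a function of the distance alone (largest error 5e-13 on all lines), so it was not used, and neither reads nor heights are given per peak. Per the submitters' processing notes, BWA 0.7.10, SAMtools, MACS2 2.1.1 and hg19 were used; their settings are not given in the sources used here, nor is the use of the 2 input libraries, which were not analysed here. For H3K27me3 the antibody label names H3K4me3, and the title was followed. Positions are printed counted from 1, assuming that deposited starts count from 0.

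Distinct peaks were counted by position, and peaks of 2 lists were shared when they overlapped by at least 1 bp. A gene, taken by its symbol, was marked when a peak centre lay within 5 kb of any of its start sites or a peak spanned one. Its width in a list was the sum over these peaks. Ratio intervals were derived from the knockout share of the summed peaks and its Wilson 95% bounds. The edges of the low interval maximise the binomial likelihood over peaks ordered by centre, with at least 50 peaks inside, and the range holds positions within 2 natural-log units. On 20 simulated data sets of 1414 peaks, 20 start and 20 end edges fell in their range. The simulation dropped peaks independently around a clean interval, as the fit assumes. It checks the code and cannot show that the ranges hold for real peaks, which cluster at promoters. Of 18113 symbols, 12754 matched a RefSeq promoter. Named genes were those of 9 gene lists, the 8 widest promoters in the parental list alone and in both, all of the knockout list alone, the 4 highest and 4 lowest ratios among promoters of at least 1000 bp, the 6 widest H3K27me3 promoters of each state and the 2 nearest marked genes on each side of an edge. The members, the lists and these rules were chosen with earlier results of these data known. Genes with a larger width in the knockout, and peaks listed at the limits, were named after their values were seen. Values of a few genes of these lists are not reported here. Alternatives were a minimum width of 300 bp, lists of equal length, merged peaks, peaks near start sites, other overlaps and other promoter windows. Python 3.11.15, numpy 2.4.6, pandas 2.3.3 and matplotlib 3.10.9 were used.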

Additional observations from a re-analysis of the deposited data

How the results depend on the processing

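No paired analysis was possible because each genotype and mark has 1 library and the labels give no replicate numbers. Of 64 recomputed values, 37 stayed within the main value's interval or within 1.5 times its count and 27 moved; the cause was not tested unless the alternative itself removes peaks. The H3K4me3 ratio of the segment, 0.397, was 0.157 with peaks of at least 300 bp (other autosomes 0.528), 0.609 with lists of equal length (1.02) and 0.656 with peaks within 1 kb merged (0.883), and stayed below the other autosomes in each. The share of parental H3K4me3 peaks overlapped was 10.7% with peaks of at least 300 bp, 36.0% with lists of equal length, 11.2% with an overlap of at least 50% of the peak and 8.98% with a reciprocal overlap; for knockout peaks these were 65.9%, 64.7%, 58.7% and 22.6%. With peaks of at least 300 bp, 169 genes were parental-only, 3 knockout-only and 48 in both. The parental-only share of parental-marked genes was then 77.9%, against 28.5% on the other autosomes. Under the same filter the median log2 ratio was -0.98 and the start edge lay at 52.8 Mb. With peaks that span the start site the counts were 26, 1 and 6, the median was -0.32 (-1.08 to 0.34), and the parental-only share was 81.25% against 71.8% on the other autosomes, in place of 34.8% against 11.9%, and with lists of equal length the median was -1.09. Counting each peak for its nearest gene gave 11 knockout-only genes. Overlap shares, medians and knockout-only counts of the other autosomes were not computed under these alternatives. With merged peaks the edge ranges widened to 32.2 to 74.1 Mb and 72.9 to 176.7 Mb. The H3K27me3 ratio, 1.14 over all listed peaks, was 0.333 (3 and 1 peaks) within 5 kb of a start site, and within 1 kb or spanning it 0 genes were parental-only and 0 knockout-only for H3K27me3. Numbered peaks, the fitted edges and promoter regions as units were added after the data had been seen and moved none of these. Depth is unknown, and 7 and 8 H3K27me3 peaks allow only wide intervals.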

Other observations

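The H3K4me3 ratio of the segment was not the only low one in the genome. Among windows of 10 Mb with at least 20 parental peaks, the lowest ratio was that of chromosome 9 from 10 to 20 Mb, with 29 parental and 6 knockout peaks (0.207), and the next window of chromosome 9, from 20 to 30 Mb, held 54 and 15 (0.278). Chromosome 10 from 0 to 10 Mb held 52 and 18 (0.346), and chromosome 17 from 10 to 20 Mb 106 and 33 (0.311). These 4 windows held between 0 and 1 H3K27me3 peaks in either list. Other windows with a low ratio held more: X from 100 to 110 Mb (0.254) held 32 parental and 14 knockout H3K27me3 peaks, X from 130 to 140 Mb (0.319) 12 and 9, X from 110 to 120 Mb (0.400) 12 and 16, and chromosome 16 from 80 to 90 Mb (0.450) 11 and 8. Chromosome 14 from 60 to 80 Mb had a ratio of 0.420, with 5 parental and 2 knockout H3K27me3 peaks. Chromosome 12 from 10 to 30 Mb, with an H3K4me3 ratio of 0.731, held 4 parental and 57 knockout H3K27me3 peaks, and chromosome 13 from 20 to 40 Mb, with a ratio of 0.867, held 13 and 43, so that in these regions the H3K27me3 lists differed where the H3K4me3 ratio was near that of the other autosomes. No test was made on any of these windows, which were looked at after their values were seen.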
